A study of Rattus norvegicus with 2 samples.

Results

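The genes described here make cholesterol or hold its synthesis in check. They are Hmgcs1, Idi1, Fdps, Fdft1, Sqle, Cyp51 and Dhcr7, which code for enzymes, and Insig1, which codes for a membrane protein of the endoplasmic reticulum. All probe sets that the platform annotation pairs with exactly 1 of these 8 symbols were taken. They number 10 of 12783 such probe sets and cover 7 of the 8 genes, out of 10411 genes on the array, and the signal of Hmgcs1 was not analysed here. None of the 8 codes for a receptor that takes up lipoproteins, and the uptake genes below come from a separate list.

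RNA came from rat sympathetic neurons in culture, noradrenergic neurons that innervate the heart and vessels. A single Affymetrix Rat Expression Set 230A array held RNA of neurons grown without a target, and another held RNA of neurons grown with myocytes, the muscle cells they innervate. The labels treat the neurons of both arrays alike otherwise: they were lifted off the dish with EDTA as the less adherent cells, and what stayed attached was left behind. The free-text description of the sample with myocytes speaks of neurons grown alone, against its title and source name, which were followed. The labels used here give no age or strain of the rats, no number of animals or cultures and no time in culture. According to the series' design text, the question was which genes go with the arrest of growth on contact with a target. There was no replicate array, so each value below compares 2 arrays and nothing was tested.

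Cholesterol synthesis starts from acetyl-CoA, passes through mevalonate and the isoprenoid farnesyl diphosphate to squalene, and ends with the removal and rearrangement of groups on the first sterol, lanosterol. The genes of the pathway are switched on together by the transcription factor SREBP-2 (Srebf2). When sterols are plentiful, Insig proteins hold SREBP and its escort Scap in the endoplasmic reticulum, and the pathway is quiet. Neurons that extend axons need cholesterol for new membrane, which they make themselves or take up in lipoproteins from glia.

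RefSeq promoter windows of rat build GRCr8, from 250 bases before to 50 after the gene's start, were at hand for Hmgcs1, Idi1, Fdps, Cyp51, Dhcr7 and Insig1, so for 6 of the 8 genes. Shown here are the 3 measured genes whose window holds the CCAAT box, the site of the factor NF-Y that acts beside SREBP at sterol genes. Fdps lies at chr2:176804767-176805066 on the minus strand, Idi1 at chr17:66547475-66547774 on the minus strand and Insig1 at chr4:8057720-8058019 on the minus strand. Each is printed 5′ to 3′ along the gene. Capitals mark CCAAT, the GC box GGGCGG of Sp1 and the E-box CACGTG, searched on both strands, so that a box on the other strand reads ATTGG or CCGCCC.
Fdps: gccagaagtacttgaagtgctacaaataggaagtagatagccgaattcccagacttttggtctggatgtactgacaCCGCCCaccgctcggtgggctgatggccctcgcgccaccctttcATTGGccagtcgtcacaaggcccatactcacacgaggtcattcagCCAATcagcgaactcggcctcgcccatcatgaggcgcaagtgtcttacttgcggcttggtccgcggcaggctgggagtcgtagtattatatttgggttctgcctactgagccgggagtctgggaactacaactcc
Idi1: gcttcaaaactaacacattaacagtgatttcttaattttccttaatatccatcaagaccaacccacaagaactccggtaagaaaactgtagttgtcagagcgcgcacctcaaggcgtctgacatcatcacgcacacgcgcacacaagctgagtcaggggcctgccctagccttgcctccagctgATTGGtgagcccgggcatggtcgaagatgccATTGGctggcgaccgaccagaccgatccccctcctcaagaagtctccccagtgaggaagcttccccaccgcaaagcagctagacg
Insig1: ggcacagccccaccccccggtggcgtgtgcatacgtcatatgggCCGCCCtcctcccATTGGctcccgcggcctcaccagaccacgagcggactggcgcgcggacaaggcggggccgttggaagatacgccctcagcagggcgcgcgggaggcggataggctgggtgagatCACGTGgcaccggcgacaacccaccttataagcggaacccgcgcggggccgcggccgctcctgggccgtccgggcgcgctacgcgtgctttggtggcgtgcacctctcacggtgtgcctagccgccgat

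CCAAT stood in 4 of the 6 windows (Hmgcs1, Idi1, Fdps and Insig1), against 37.5% of all 33469 rat windows of this length and 38.0% of the 5379 windows of genes above the signal filter. Fdps, Idi1 and Hmgcs1 had 2 such boxes each, and Insig1 had 1. GGGCGG stood in 5 of the 6 windows, all but that of Idi1, with 2 overlapping boxes in Dhcr7, against 33.1% of all windows and 67.5% of those of genes above the filter. CACGTG, which is its own reverse complement, stood in the window of Insig1 alone among the 6, 79 bases before the start, against 6.42% of all windows and 9.98% of those of genes above the filter. The letters TCACNCCAC, a form of the sterol regulatory element that SREBP binds, were in none of the 6 windows, in 1.12% of all windows and in 1.17% of those of genes above the filter. Other forms of this element were not searched, so these windows may hold some that are not marked. A match describes these letters in this window and is not a measured binding site.

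The signals of the cholesterol genes were close on the 2 arrays. Intensities are given as deposited, on a linear scale in arbitrary units, and the log2 ratio is that of neurons with myocytes over neurons alone. A gene was read from its brightest probe set, and on that reading no member reached 1.5-fold in either direction. Of the 7 measured genes, 4 (Idi1, Fdps, Cyp51 and Dhcr7) had a higher and 3 (Fdft1, Sqle and Insig1) a lower signal in neurons with myocytes. All 7 were above the signal filter, an intensity at or above the array's median (185.7 and 175.0) on at least 1 array. On the brightest probe set all 7 were also above the 75th percentile of both arrays. Among the 6368 genes above that filter, 5.23% were past 1.5-fold (1.93% higher, 3.3% lower). Among the 2983 genes above the 75th percentile on both arrays, which are as bright as the members, 1.94% were past 1.5-fold. An absence of members past 1.5-fold among 7 is therefore near the background and says nothing particular about them.

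**Figure D1:**
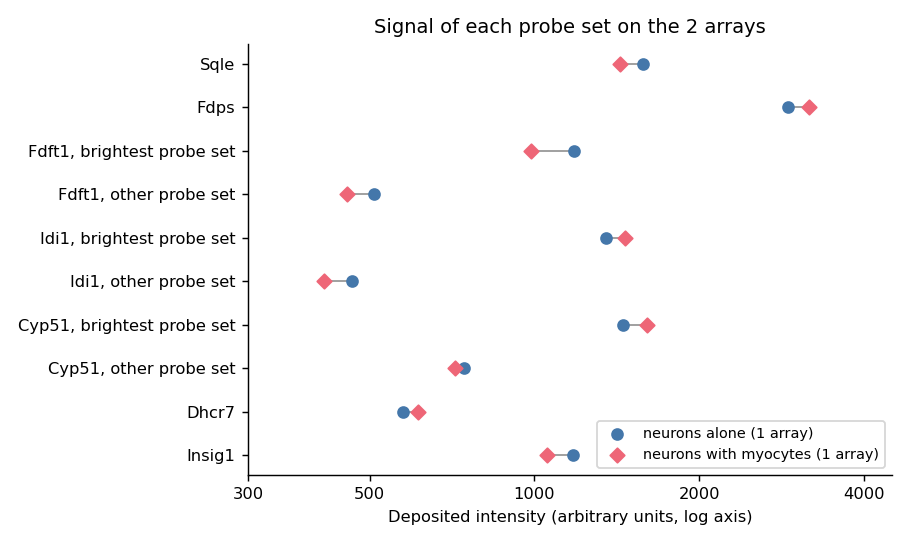
Deposited intensity (arbitrary units, log axis) of the 10 probe sets of the 7 measured genes, with a circle for neurons alone and a diamond for neurons with myocytes, 1 array each. In every probe set the 2 points lie within 1.20-fold, and the second probe sets of Idi1 and Cyp51 have their points in the opposite order to the brightest.

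Among the enzymes before squalene, Idi1 and Fdps had slightly higher signals with myocytes. Idi1 turns isopentenyl diphosphate into its isomer, the 2 building blocks of all isoprenoids. Its brightest probe set read 1353 in neurons alone and 1465 in neurons with myocytes (1.08-fold higher, log2 ratio 0.11). Its other probe set read 465 and 413, a log2 ratio of -0.17, so that the direction for Idi1 depended on the probe set. Fdps joins these units into farnesyl diphosphate, from which sterols, dolichol, ubiquinone and the lipid anchors of Ras proteins are made. It read 2897 in neurons alone and 3170 with myocytes (1.09-fold higher, log2 ratio 0.13).

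The enzymes that make squalene and oxidise it had lower signals with myocytes. Fdft1, squalene synthase, takes the first step that serves sterols alone, and its brightest probe set had the largest difference of all members. It read 1181 in neurons alone and 984.7 in neurons with myocytes (1.20-fold lower, log2 ratio -0.26). The other probe set of Fdft1 read 509.4 and 454.5 (log2 ratio -0.165), so both were lower. Sqle, squalene epoxidase, a rate-limiting oxygen-dependent step, read 1580 in neurons alone and 1434 with myocytes (1.10-fold lower, log2 ratio -0.14).

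Of the enzymes that work on the sterol ring, both measured members were slightly higher. Cyp51 removes a methyl group from lanosterol. Its brightest probe set, whose identifier marks several transcripts, read 1450 in neurons alone and 1603 with myocytes (log2 ratio 0.14), and the other read 745 and 717 (log2 ratio -0.055). As for Idi1, these 2 probe sets lay on opposite sides of 0. Dhcr7, which carries out a last step to cholesterol, read 575 in neurons alone and 613.5 with myocytes (log2 ratio 0.09), the smallest difference among the brightest probe sets.

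Insig1, the regulatory member, is itself a target gene of SREBP and is often read as a gauge of SREBP activity. It read 1175 without and 1056 with myocytes (1.11-fold lower, log2 ratio -0.15). It was thus on the side of Fdft1 and Sqle and not on that of Fdps, Idi1, Cyp51 and Dhcr7.

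These differences were of the size of the noise of a probe set. It was estimated from the 749 genes that had more than 1 probe set past the filter: the log2 ratios of the top pair were subtracted, and the SD of that gap was divided by the square root of 2. It was 0.21 on the log2 scale in the brightest of 4 equal groups by signal and 0.36 in the dimmest. It covers disagreement between probe sets of 1 gene and not that between cultures. 6 of the 7 brightest probe sets of the members lay within 1 SD of 0, the exception being Fdft1 at 1.27 SD. The median log2 ratio of the 7 genes was 0.09 (SD 0.17 over genes, n = 7 genes), against -0.015 (SD 0.30) over the 6368 genes above the filter and 0.02 (SD 0.22) over the 2983 bright genes. Over all 10 probe sets it was -0.10, with 4 higher and 6 lower, so the members as a set have no direction that holds on both readings. 52.7% of genes above the filter were lower with myocytes.

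**Figure D2:**
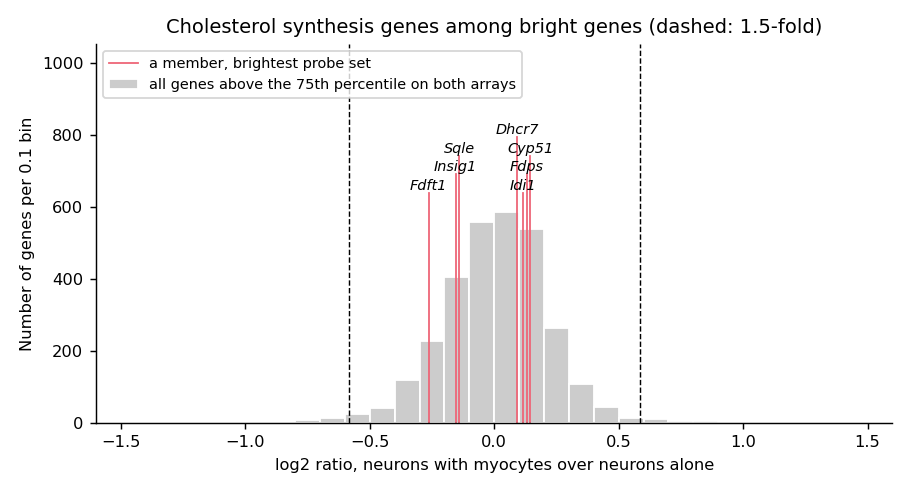
Number of genes per 0.1 bin of the log2 ratio of neurons with myocytes over neurons alone (grey bars, the 2983 genes above the 75th percentile of both arrays), with a line at the brightest probe set of each of the 7 members. The members fall between -0.26 (Fdft1) and 0.14 (Cyp51), within the bulk of the bars and inside the dashed 1.5-fold limits; 66.2% of these bright genes lie in that range.

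Scaling turned the sign of no member on its brightest probe set. Under 5 other ways of setting the 2 arrays to a common level, Fdft1 ranged from -0.29 to -0.18, Sqle from -0.17 to -0.055 and Insig1 from -0.18 to -0.07, while Fdps ranged from 0.06 to 0.22. The share of higher genes among all those past 1.5-fold did move. It was 30.0% with the spiked controls as the scale (105 higher, 245 lower), 36.9% as deposited (123 and 210), 42.0% with equal trimmed means (133 and 184), 51.5% after quantile normalization (169 and 159), 50.5% after lowess (164 and 161) and 57.6% with medians equalised (190 and 140).

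The other enzymes of the pathway also stayed under 1.5-fold on their brightest probe sets. A list of 20 further sterol enzymes and their partners had 15 genes on the array, all above the filter, of which 6 were higher and 9 lower, with a median log2 ratio of -0.06 and none past 1.5-fold in either direction. With medians equalised 8 were higher and 7 lower, with a median of 0.03. The brightest were Msmo1, which strips methyl groups from the sterol ring, at 1570 and 1572 (log2 ratio 0.00, negative under 2 of 6 scalings), and Acat2, which makes acetoacetyl-CoA, at 1250 and 1324 (log2 ratio 0.08). Lbr, a sterol reductase of the inner nuclear membrane named after its value was seen, was farthest from 0 at 400.0 and 303.3 (log2 ratio -0.40).

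When the enzymes, members included, were set in pathway order after their values were seen, 5 of 6 from acetoacetyl-CoA to farnesyl diphosphate were higher, with a median of 0.10. The order leaves out Acat1, a mitochondrial thiolase of the same list that also makes acetoacetyl-CoA. It was lower (910 and 792, log2 ratio -0.20), and with it the count is 5 of 7. All 3 from squalene synthesis to lanosterol (Fdft1, Sqle and the cyclase Lss) were lower, with a median of -0.14. Of 9 that convert lanosterol to cholesterol 5 were higher and 4 lower, with a median of 0.00. Over all genes above the filter 47.3% were higher and 52.7% lower. Up to lanosterol, on the brightest probe sets, only Fdft1, at 1.27 SD of a probe set, lay more than 1 SD from 0. Idi1, counted as higher, was at -0.17 on its other probe set. The segments were drawn with the values known, and their difference was not tested. Lss read 999 and 934 on its brightest probe set (log2 ratio -0.10) and 281 and 181 on its other (-0.63, 1.55-fold lower), the second being past 1.5-fold. The signs of Fdft1, Sqle and Lss held under all 6 scalings. Mvk, mevalonate kinase, was the exception in the early segment, at 520 and 444 (log2 ratio -0.23) and at 315 and 230.5 on another probe set (-0.45). Acat1, Lss and Mvk were named after their values were seen. No enzyme of the 20 in this order was past 1.5-fold on its brightest probe set.

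**Figure D3:**
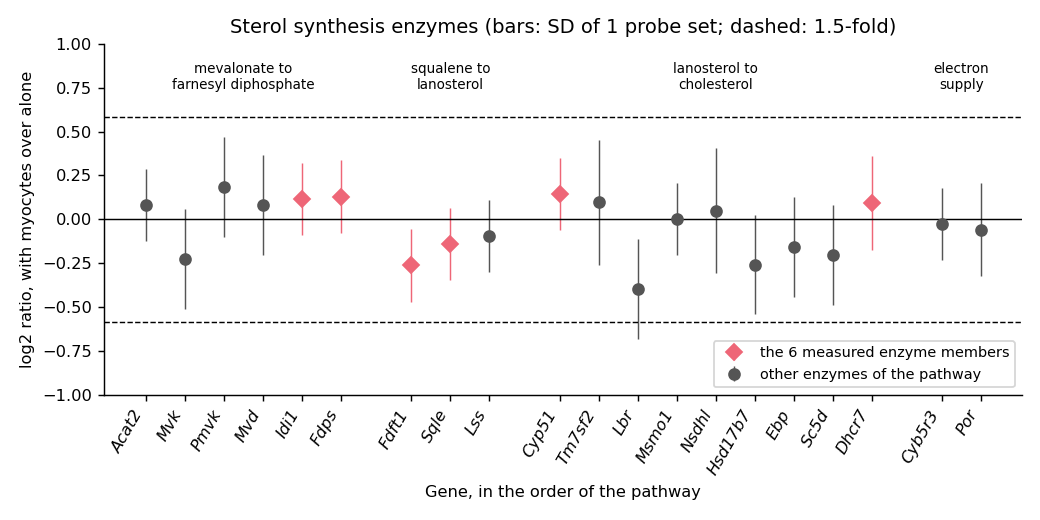
Log2 ratio of neurons with myocytes over neurons alone for 20 enzymes in the order of the pathway, brightest probe set of each, with bars of 1 SD of a probe set at that signal. Red diamonds are the 6 measured enzyme members and grey circles the other enzymes; the 3 genes of the squalene to lanosterol segment lie below 0, and all 20 lie inside the dashed 1.5-fold limits.

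Among the SREBP control genes above the filter, Srebf2 itself had the largest difference. Srebf2, which codes for the factor that drives the pathway, read 1551 in neurons alone and 1182 in neurons with myocytes (1.31-fold lower, log2 ratio -0.39, or 1.90 SD of a probe set) and was lower under all 6 scalings. Its other probe set was below the floor of 39.6 on both arrays. Srebf1, whose products drive mainly fatty acid synthesis, read 249 and 248 (log2 ratio -0.01, above 0 under 4 of 6 scalings), and Insig2, a relative of Insig1 that is not an SREBP target, 168 and 182.5 (log2 ratio 0.12). Vcp, the segregase that helps to extract membrane proteins for degradation, read 2994 and 3300 (log2 ratio 0.14). Of 8 control genes above the filter out of 10 on the array, 5 were higher and 3 lower, none past 1.5-fold, with a median of 0.04.

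Genes of uptake and transport differed in direction, and none passed 1.5-fold. Of 11 on the array 10 were above the filter, 6 higher and 4 lower, with a median of 0.15. Npc2, which lifts cholesterol out of the lysosome, read 1922 and 2327 (1.21-fold higher, log2 ratio 0.28), and the sterol carrier Scp2 read 883 and 1000 (log2 ratio 0.18). Lipoprotein receptors named after their values were seen differed in direction. The broad receptor Lrp1 was higher at 267.5 and 353.5 (log2 ratio 0.40), while Lrp8, the apoE and reelin receptor of neurons, was lower at 222 and 179 (log2 ratio -0.315). The brightest probe set of Vldlr was at 0.37, and its others were at -0.05 and 0.08.

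For efflux, storage and oxysterols 5 of 11 genes were above the filter, with a median of 0.03 and none past 1.5-fold. That median was -0.047 when probe sets were averaged, -0.095 without those for several transcripts and -0.335 with the next brightest, which leaves 2 genes above the filter. Apoe, the lipoprotein of glia, read 795 and 862 (log2 ratio 0.12). Soat1, which esterifies cholesterol, had probe sets that disagreed, the brighter at 0.19 (478 and 543) and the other at -0.20.

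On the brightest probe sets, the branch that leaves farnesyl diphosphate for prenylated proteins, dolichol and ubiquinone held the genes past 1.5-fold. Of 12 on the array 8 were above the filter, 2 higher and 6 lower, with a median of -0.20. Dhdds, which makes the long isoprenoid of dolichol, the sugar carrier of N-glycosylation, read 271 in neurons alone and 155 in neurons with myocytes (1.75-fold lower, log2 ratio -0.81). Rce1, the protease that trims prenylated proteins such as Ras, read 520 and 321 (1.62-fold lower, log2 ratio -0.70). Both were past 1.5-fold under all 6 scalings, but each has 1 probe set. Dhdds passed the filter only on the array of neurons alone, since 155 is below the median of 175.0 with myocytes. The filter thus favours its call as lower. The brightest of the list were the farnesyltransferase subunit Fnta, at 1063 and 1093 (log2 ratio 0.04), and the Rab prenylation subunit Rabggtb, at 930 and 891 (log2 ratio -0.06, above 0 under 1 of 6 scalings). Over the 6 lists together 62 genes were above the filter, and these 2 lower genes make 3.23% of them, near the 3.3% of all genes above the filter that were lower past 1.5-fold. Outside this branch, Lss and Acaca were lower past 1.5-fold on a probe set that was not their brightest.

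The fatty acid genes that share SREBP control had 16 of 19 above the filter, 10 higher and 6 lower, with a median of 0.13 and none past 1.5-fold. This direction rests on the choice of probe set, since with the next brightest 6 were higher and 9 lower, with a median of -0.18 and 1 gene lower past 1.5-fold (Acaca). Scd2, a desaturase, read 2720 and 3195 on its brightest probe set (log2 ratio 0.23) and 1073 and 946 on another (-0.18). Slc25a1, which exports citrate from mitochondria for both lipid pathways, read 2863 and 2427 (log2 ratio -0.24).

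**Figure D4:**
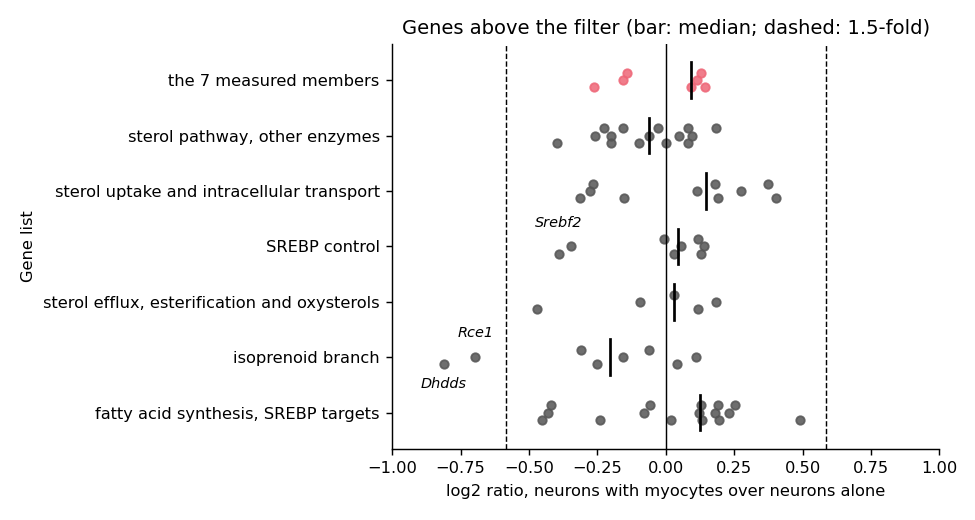
Log2 ratio of neurons with myocytes over neurons alone for the genes above the signal filter in the set of 7 measured members (red) and in 6 lists of related genes (grey), each point the brightest probe set of a gene and the bar the list's median. Medians run from -0.20 (isoprenoid branch) to 0.15 (uptake and transport), and only Dhdds and Rce1 lie outside the dashed 1.5-fold limits.

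Sterol synthesis takes place in all the cell types these cultures could hold, so the signals cannot be assigned to neurons or to other cells. Markers of sympathetic neurons were all on the lower side: 11 of 11 on the array, with a summed intensity of 41360 in neurons alone and 33710 with myocytes. Th, which makes the catecholamine precursor L-DOPA, was at -0.43 and the peptide Npy at -0.30. Apart from Nppa, Th and the 2 brightest of each list, the markers named here and in the lists that follow were picked with their values known. Among the neuronal ones, those past 1.5-fold were the noradrenaline transporter Slc6a2 (552 and 217.5, 2.54-fold lower) and the fusion protein Snap25 (1778 and 1159, 1.53-fold lower, under 1.5-fold in 1 of 6 scalings). Fewer neurons and less RNA of these genes per neuron cannot be told apart in such samples. Fibroblast and smooth muscle markers, 12 of 12 above the filter, summed to 50820 and 54540, with Col1a1 and Col1a2 as the brightest (log2 ratios 0.11 and 0.08, below 0 under 2 and 1 of the 6 scalings). The matrix proteoglycans Dcn (306 and 652, 2.13-fold) and Lum (395 and 689, 1.75-fold) were higher past 1.5-fold, while Acta2 (-0.47), Tagln (-0.23) and Myl9 (-0.24), which serve contraction, were on the lower side. Glial markers, 8 of 10 above the filter, summed over all 10 to 6637 and 6813. Of the 8, 5 were higher and 3 lower. Pmp22 was at -0.11 (-0.505 on its other probe set), Cnp at 0.44 and the calcium-binding protein S100b past 1.5-fold (263.5 and 524, 1.99-fold higher). Glul (-0.385) and Mbp (-0.275) were lower on all their probe sets. Below the filter, Mal was at -0.74 and Fabp7 at 0.04. Cardiac markers, 4 of 11 above the filter, summed over all 11 to 1168 and 1646. Among them the study's own marker Nppa read 178 and 201, Tnnt2 293 and 408 and Pln 284 and 279. The natriuretic peptide gene Nppb was past 1.5-fold (180 and 309, 1.72-fold higher). It passed the filter only on the array with myocytes, where its signal was higher. Below the filter, Myl2 (44.8 and 134), Myh6 (74.3 and 134) and Myh7 (18.3, under the floor, and 69.9) were higher too. Their other probe sets were under the floor on both arrays. Mb was also higher (13.94, under the floor, and 45.4), while Myl7 (40.55 and 30.98), Tnni3 (33.3 and 29.5) and Ryr2 (8.47 and 4.46) were not. The other probe sets of Tnnt2 and Pln, also below the filter, were at -0.425 and -0.27. Macrophage and leukocyte markers, 6 of 12 above the filter, summed over all 12 to 2350 and 2112, with Lyz2 at 563 and 484 and Cd14 at 420 and 475. Of these 6, Cd14 was the 1 higher and the other 5 were lower, with a median log2 ratio of -0.24. No marker was at 0 on either array, but Tnni3 and Ryr2 were under the floor of 39.6 on both. The part of these cell types in the values above was not tested. The 3′ to 5′ signal ratio, which gauges RNA integrity, was 1.15 in neurons alone and 1.24 with myocytes for beta-actin and 1.13 and 1.17 for GAPDH.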

How the data were processed

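Values were read from the deposited table of 15923 probe sets, of which 57 controls were set apart. It holds intensity on a linear scale, 1 value per probe set and array, as the authors deposited it. The series' design text names dChip 1.3 and the submitters' processing notes name MAS5; the sources do not say which of them gave these values, or how they were scaled. No normalization was added. Values below the pooled 20th percentile (39.6) were raised to it, log2 was taken, and a gene was read from the brightest of its probe sets that carry a single symbol. Of 15866 probe sets 12783 had 1 symbol, 312 several and 2771 none; gene identifiers were matched to RefSeq symbols of GRCr8 for names alone. A gene passed the filter at or above its array's median on at least 1 array. With 1 array per condition no test was made and precision is limited by the number of arrays.

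The alternatives were quantile normalization, median scaling, lowess (span 0.3), scaling to the 2% trimmed mean or to the median of 9 spiked control probe sets, other floors, filters at the 25th percentile or none, and other choices of probe set. Named genes were the 8 members, pathway list genes past 1.5-fold, the 2 brightest of each pathway and marker list, and Srebf1, Srebf2, Insig2, Nppa and Th; the text marks any other gene as picked with its values known. Some further genes of that rule are not reported here. The members and lists were chosen with earlier results of these data known. The calculation was done in Python 3.11.15 with statsmodels 0.14.6. Its scaling and log2 ratio steps were tested on simulated data with less noise than was estimated here. Scaling to the spiked controls, the choice of probe set and the noise estimate were not part of that test.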

Additional observations from a re-analysis of the deposited data

How the results depend on the processing

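The number of members past 1.5-fold was 0 under all 13 alternatives, and the largest fold of any member under any of them was 1.22 (Fdft1). The median log2 ratio of the 7 genes, 0.09, was 0.18 under median scaling, which moves every gene alike. It was -0.028 when probe sets of a gene were averaged, -0.14 with the next brightest probe set and -0.055 without probe sets for several transcripts, and the number of lower members went from 3 to 5 with the next brightest probe set. Only the choice of probe set turned a member's sign, for Idi1 and Cyp51. Of 91 recomputed member values 1 moved by more than the spread of a probe set (Idi1, next brightest probe set, -0.17). Over all genes, 333 were past 1.5-fold and 837 with the filter at the 25th percentile or with none. No paired analysis was possible because each condition has 1 array. With 1 array each, differences of the size seen here cannot be separated from the spread between cultures, which was not measured.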

Other observations

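Probe sets of the same gene differed in direction beyond the members. Of 17 genes in the 6 lists with several probe sets above the filter, 9 had all of them lower, 3 had all of them higher and 5 (Elovl5, Me1, Scd2, Soat1 and Vldlr) had them on opposite sides of 0. The median gap between the lowest and the highest was 0.32 on the log2 scale. For Acaca, the acetyl-CoA carboxylase that commits carbon to fatty acids, the brightest probe set read 639 and 604 (log2 ratio -0.08) and another 238.5 and 140 (-0.77, 1.70-fold lower). For Hsd17b7, a sterol ketoreductase, both were lower, at -0.26 and -0.58. These genes were named after their values were seen.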
